A study of Mus musculus with 30 samples.

Results

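The interferon regulatory factors described here are Irf1, Irf2, Irf4, Irf7, Irf8 and Irf9, taken as every probe set of the array whose only annotated gene symbol is one of these names. A probe set is a group of short oligonucleotides that together report 1 transcript. The rule found 6 probe sets of 12422 tested, for 5 of the 6 genes: 102401_at for Irf1, 92737_at for Irf4, 104669_at and 162202_f_at for Irf7, 98002_at for Irf8 and 103634_at for Irf9. No probe set was named for Irf2 alone, so Irf2 was not analysed here. The suffix of 162202_f_at marks probes shared within a family of sequences, and 104669_at therefore stands for Irf7 unless the other is named.

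The values come from 30 one-colour Affymetrix MG-U74Av2 arrays of sorted CD4+ T cells. All mice were NOD, a strain that develops autoimmune diabetes, and all carried the BDC2.5 T cell receptor transgene, so that most of their T cells recognize an islet antigen. From nodes of mice aged 4 weeks there were 5 mesenteric CD25+ arrays, 3 peripheral CD25+ arrays, 3 mesenteric CD25- arrays and 3 peripheral CD25- arrays. CD25, the interleukin 2 receptor alpha chain, marks most regulatory T cells. From infiltrated pancreas, a first set held 3 Treg arrays (CD4+CD25+CD69-) and 5 Teff arrays (CD25 low or negative, with any CD69), all from mice given rat IgG and with no age stated. A second set held 3 Treg arrays (CD4+CD25+) and 3 Teff arrays (CD4+CD25-) after treatment with an anti-ICOS antibody, directed at a costimulatory receptor of T cells. It also held 2 IgG Treg arrays, gated as CD69-. Mice of the second set were 26 days old, or 4 weeks for IgG Treg replicate 1. No label says whether replicates came from separate animals, so p-values cover the spread between the arrays of a group and no more, and that spread may be technical.

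All values are log2 of the deposited intensity, and each of the 3 sets was normalized separately. Array medians of linear intensity were 25.3 to 27.1 in the node set, 32.5 to 34.5 in the first pancreatic set and 27.9 to 29.8 in the second. The sort was borne out by Il2ra, which encodes CD25, with a mean of 5.67 ± 0.34 in mesenteric CD25+ arrays (SD, n = 5) and 4.10 ± 0.01 in mesenteric CD25- arrays (SD, n = 3). In every CD25+ or Treg array except 1, Il2ra lay at least 1 log2 unit above all CD25- or Teff arrays of the same set. Several records need care. The array labelled anti-ICOS Treg replicate 3 read 3.88 for Il2ra, against 5.0 and 7.03 in replicates 1 and 2 and 3.68 to 3.82 in the anti-ICOS Teff arrays. Its mean over 18 genes of effector regulatory T cells was 5.24, against 6.69 and 7.44 in those replicates and 5.12 to 5.35 in the Teff arrays, and it correlated at r = 0.9934 with Teff replicate 3. Its markers thus go against its label. For each comparison that uses it, the Irf8 difference is given with and without it, and correlations over the second set include it. All peripheral arrays carry a mesenteric tissue entry against their titles, mesenteric CD25+ replicate 2 carries a CD25- source name, and the titles were followed. IgG Treg replicate 3 of the first set and IgG Treg replicate 2 of the second bear the same array number and correlated at r = 0.9974 across probe sets, against at most 0.9947 for any other pancreatic pair. Replicate 2 of the peripheral CD25- and of the peripheral CD25+ arrays had the highest mean of 16 B cell markers among the node arrays (5.26 and 5.27, against 4.70 to 5.02 in the other 12 arrays).

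These factors bind DNA through a shared domain that recognizes repeats of GAAA, and they fall into roles. IRF9 is the DNA-binding part of the complex that turns on genes after type I interferon. IRF7 is itself induced by that complex and amplifies the interferon alpha response, while IRF1 is induced mainly by interferon gamma. IRF4 and IRF8 are the lymphoid and myeloid members. IRF4 is induced in T cells by antigen receptor signalling, acts with BATF and JUN proteins, and is needed for effector and effector regulatory T cells. IRF8 is best known in dendritic cells, macrophages and B cells, where it pairs with the ETS factor PU.1, and it is also present in activated T cells.

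The start regions of Irf4, Irf8 and Irf7, which differed in opposite directions between node sites, are printed to show which interferon-linked letters they hold, with that of Irf1, which did not pass the test, beside them. Sequences are from RefSeq on GRCm38.p6, 250 bases before to 50 bases after the annotated start, 5′ to 3′ along the gene's strand. Capitals mark matches to any of 3 motifs searched on both strands: the GAS (gamma-activated sequence) letters TTCNNNGAA (in 8.3% of 32851 promoter windows), the ISRE core, which is GAAA, any 2 bases and GAAA (3.44%), and the ETS-IRF composite, which is GGAA, any 2 bases and GAAA (2.72%).
Irf4, chr13:30748983-30749282, plus strand: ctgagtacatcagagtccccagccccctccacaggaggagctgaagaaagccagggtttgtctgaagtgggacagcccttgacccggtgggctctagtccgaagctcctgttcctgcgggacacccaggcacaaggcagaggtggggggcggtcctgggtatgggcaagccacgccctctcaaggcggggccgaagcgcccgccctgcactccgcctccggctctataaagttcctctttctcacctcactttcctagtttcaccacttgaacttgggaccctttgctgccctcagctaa
Irf8, chr8:120736108-120736407, plus strand: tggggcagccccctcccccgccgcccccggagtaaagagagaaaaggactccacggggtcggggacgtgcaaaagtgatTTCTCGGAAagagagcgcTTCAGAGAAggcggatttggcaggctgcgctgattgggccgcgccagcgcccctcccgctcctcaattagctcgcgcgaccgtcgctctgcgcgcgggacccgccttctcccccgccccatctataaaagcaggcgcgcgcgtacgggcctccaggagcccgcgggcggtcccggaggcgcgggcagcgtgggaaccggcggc
Irf7, chr7:141266375-141266674, minus strand: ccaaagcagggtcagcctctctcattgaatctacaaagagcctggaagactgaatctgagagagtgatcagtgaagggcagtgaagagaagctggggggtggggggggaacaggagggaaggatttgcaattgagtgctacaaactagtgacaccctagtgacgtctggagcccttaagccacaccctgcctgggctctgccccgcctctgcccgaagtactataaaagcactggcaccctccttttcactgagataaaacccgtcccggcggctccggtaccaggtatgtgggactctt
Irf1, chr11:53769764-53770063, plus strand: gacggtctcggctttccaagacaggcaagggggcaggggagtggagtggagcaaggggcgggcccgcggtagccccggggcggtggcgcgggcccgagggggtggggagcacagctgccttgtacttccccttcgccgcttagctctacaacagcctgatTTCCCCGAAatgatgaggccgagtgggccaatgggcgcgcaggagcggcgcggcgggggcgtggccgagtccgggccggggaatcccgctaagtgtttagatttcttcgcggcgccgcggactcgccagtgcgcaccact
The printed window of Irf8 held 2 GAS matches, at positions -171 to -163 and -153 to -145 from its start. That of Irf1 held 1, at -90 to -82. Both genes have 2 annotated starts, and the window of the other start, not printed, held no match in either gene. No searched letters were found in the window of Irf4 or Irf7, nor in either window of Irf9. Irf2 held 1 match to each of the 3 motifs. These are matches of letters and say nothing of binding.

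Between node sites, cells of the mesenteric nodes had less Irf4 and Irf8 RNA and more Irf7 and Irf9 RNA than cells of the peripheral nodes, and Irf1 did not pass the test. With CD25+ and CD25- cells weighted equally, the log2 difference of mesenteric minus peripheral was -0.87 for Irf8 (SE 0.14, limma adjusted p = 0.0117) and -0.84 for Irf4 (SE 0.15, adjusted p = 0.0180). It was 0.61 for Irf7 (SE 0.11, adjusted p = 0.0180) and 0.46 for Irf9 (SE 0.09, adjusted p = 0.0341). Irf1 differed by 0.09 (95% interval -0.19 to 0.37), and the family-shared Irf7 probe set by 0.28 (adjusted p = 0.181). So 4 of the 6 probe sets passed, 2 higher and 2 lower, where 0.507% of all probe sets passed (0.298% higher and 0.209% lower). At an unadjusted p under 0.05 it was 5 of 6, against 5.60% of all probe sets. In sizes, Irf4 and Irf8 lay between -0.87 and -0.84, against 0.09 to 0.61 for Irf1, Irf7 and Irf9. The members were chosen with earlier results of these data known, so these counts and sizes are descriptions.

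The call of Irf8 was kept in every alternative tried, and the other 3 were not. With the replicate number as a block, the limma adjusted p was 0.0744 for Irf4, 0.0694 for Irf7 and 0.103 for Irf9. Irf9 also lost its call with limma's trend and robust options (adjusted p = 0.113), with the B cell marker mean as a covariate (0.0576) and without any 1 of 10 of the 14 arrays. Irf7 lost its call without mesenteric CD25- replicate 1, peripheral CD25- replicate 2 or 3, or peripheral CD25+ replicate 2, and Irf4 without mesenteric CD25- replicate 2 or replicate 2 of either peripheral sort. In those 7 fits of Irf4 and Irf7 the adjusted p was 0.0540 to 0.0757. Array numbers split the node arrays into 2 runs, D and E, each with all 4 groups. Mesenteric minus peripheral was -0.88 in run D and -0.81 in run E for Irf4, -0.77 and -1.10 for Irf8, 0.66 and 0.47 for Irf7, and 0.62 and 0.30 for Irf9.

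**Figure D1:**
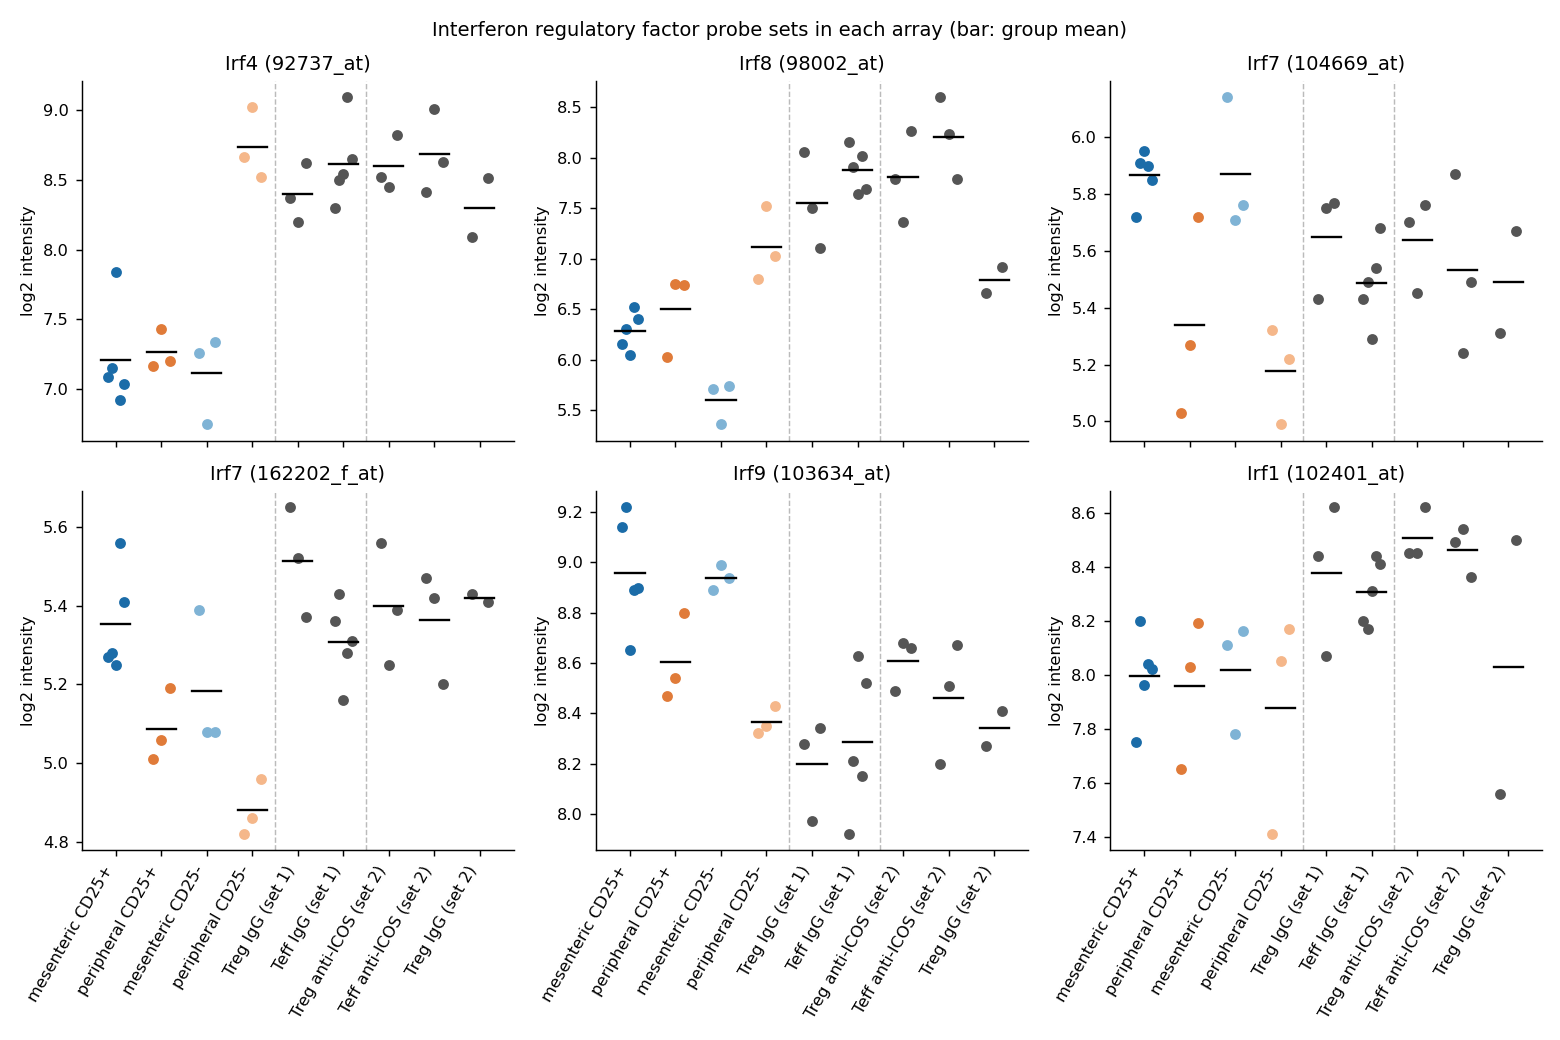
Log2 intensity (vertical axis, a separate scale for each probe set) of the 6 probe sets in each of the 30 arrays (points), by group, with the group mean as a bar; dashed lines separate the node set, the first and the second pancreatic set, which were normalized separately. The 3 peripheral CD25- arrays stand above the other 11 node arrays for Irf4 (8.52 to 9.02), and the mesenteric arrays lie higher for Irf7 and Irf9.

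Irf4 and Irf8 differed by site in the CD25- cells. For Irf4, the mesenteric CD25- arrays read 7.26, 6.75 and 7.34, and the peripheral CD25- arrays read 8.66, 9.02 and 8.52. The groups did not overlap, and the lowest peripheral array lay above every mesenteric array of either sort. The difference was -1.61 (SE 0.22, limma adjusted p = 0.00306), which is 3.06-fold lower in mesenteric cells. It was the 19th largest of 12422 in size.

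For Irf8, the mesenteric CD25- arrays read 5.71, 5.36 and 5.74, and the peripheral CD25- arrays read 6.80, 7.52 and 7.03. These groups also did not overlap, and the mesenteric CD25- arrays were the lowest 3 of all node arrays. The difference was -1.51 (SE 0.21, adjusted p = 0.00366), or 2.85-fold lower in mesenteric cells. In CD25- cells, 2 of the 6 probe sets passed, both lower, where 0.451% of all probe sets passed (0.242% lower). Both calls were kept in all 21 alternatives, with adjusted p of at most 0.0241 for Irf4 and 0.0263 for Irf8.

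The peripheral CD25- array with the most B cell marker signal, replicate 2, was also the highest for Irf4 and Irf8. Without it, the differences were -1.47 for Irf4 and -1.31 for Irf8 (limma adjusted p = 0.0241 for each). With the B cell marker mean as a covariate, chosen after seeing the data, Irf8 differed by -1.42 (adjusted p = 0.00383) and Irf4 by -1.57 (adjusted p = 0.00673). The mean of the 16 B cell markers spanned 4.70 to 4.93 in mesenteric CD25- arrays and 4.76 to 5.26 in peripheral CD25- arrays, and 0 of 16 passed by limma (1 at an unadjusted p under 0.05). Of 17 macrophage and dendritic cell markers 0 passed (1 unadjusted), with means of 4.63 to 4.71 in mesenteric and 4.61 to 4.76 in peripheral CD25- arrays. In these bulk samples, fewer cells that express a gene and less RNA per cell cannot be told apart.

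Irf7 and Irf9 were also apart by site in CD25- cells, without passing the test there. For Irf9 the mesenteric CD25- arrays read 8.89, 8.99 and 8.94, against 8.32, 8.35 and 8.43 in peripheral CD25- arrays. For Irf7 they read 6.14, 5.71 and 5.76, against 5.32, 4.99 and 5.22. Neither gene's groups overlapped, and both differences were positive, at 0.58 (SE 0.13) for Irf9 and 0.69 (SE 0.16) for Irf7, with a limma adjusted p of 0.123 for each. Without mesenteric CD25+ replicate 3, which enters the shared estimate of spread, Irf9 passed in CD25- cells (adjusted p = 0.0437), and without peripheral CD25+ replicate 3 Irf7 did (0.0245). Non-overlap was frequent at this group size: 9.84% of all probe sets showed it (4.43% higher and 5.41% lower), and 5 of the 6 members did, Irf4 and Irf8 lower and Irf9 and both Irf7 probe sets higher. Irf1 overlapped, at 8.11, 7.78 and 8.16 in mesenteric and 7.41, 8.05 and 8.17 in peripheral CD25- arrays.

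In CD25+ cells no member passed by limma, where 0.0725% of all probe sets did, and 3 of 6 had an unadjusted p under 0.05, against 4.28% of all probe sets. Irf7 read 5.72, 5.91, 5.95, 5.90 and 5.85 in mesenteric arrays, against 5.03, 5.27 and 5.72 in peripheral arrays. The groups did not overlap before rounding, but the highest peripheral and the lowest mesenteric array both read 5.72, and the peripheral array nearest to the mesenteric ones was replicate 3. The difference was 0.53 (SE 0.14, adjusted p = 0.588), and 0.72 without that array (adjusted p = 0.0543). Both Irf7 probe sets were non-overlapping and higher, as were 1.32% of all probe sets.

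For Irf9 in CD25+ cells the mesenteric arrays read 9.14, 9.22, 8.65, 8.89 and 8.90, and the peripheral arrays 8.47, 8.54 and 8.80. Mesenteric replicate 3 lay below the highest peripheral array, and the difference was 0.35 (SE 0.12). Within runs it was 0.67 in run D but 0.01 in run E, where the only peripheral array is replicate 3. For Irf7 the same 2 values were 0.67 and 0.18.

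Irf8 in CD25+ cells read 6.16, 6.30, 6.05, 6.52 and 6.40 in mesenteric arrays, against 6.03, 6.75 and 6.74 in peripheral arrays. Irf4 read 7.09, 7.15, 7.84, 6.92 and 7.04, against 7.17, 7.43 and 7.20. Both overlapped, with differences of -0.22 for Irf8 (95% interval -0.63 to 0.19) and -0.06 for Irf4 (-0.49 to 0.36). Irf1 differed by 0.04 (-0.34 to 0.41).

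**Figure D2:**
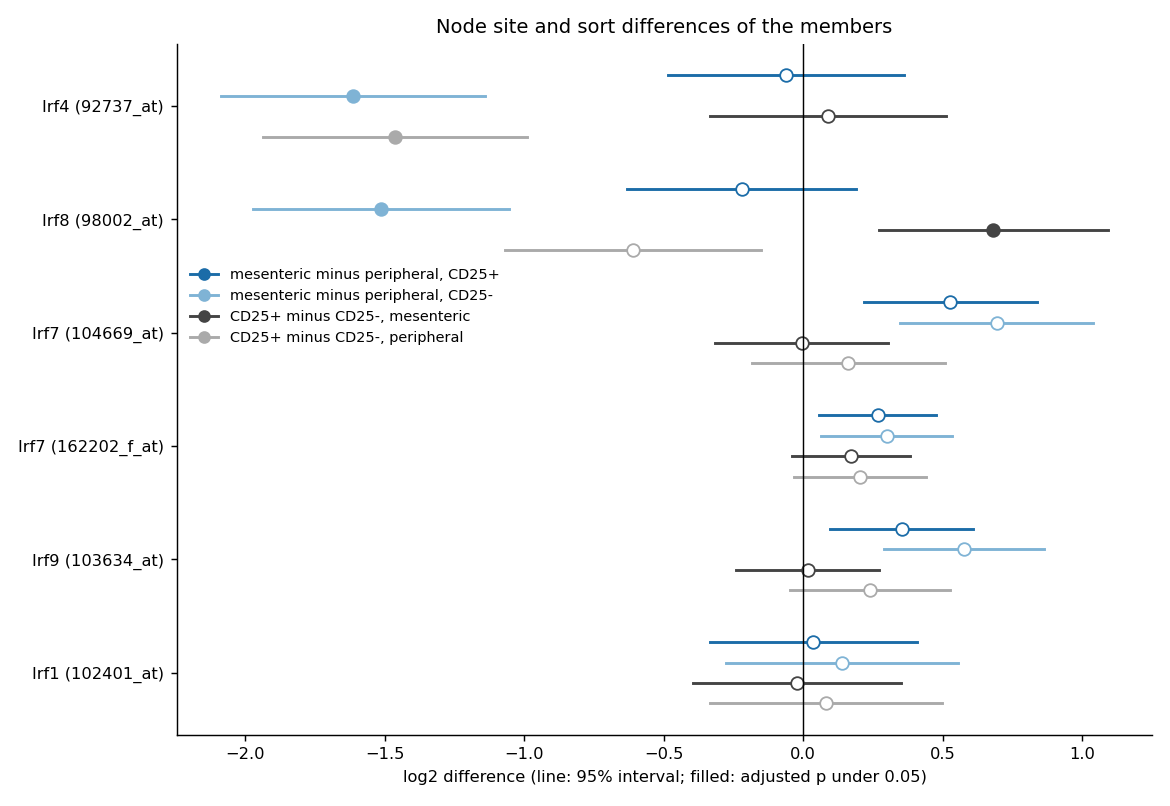
Log2 difference (horizontal axis) with its 95% interval (line) for each member probe set in the 4 node comparisons (colours); filled points have a limma adjusted p under 0.05. Irf4 and Irf8 stand apart at -1.61 and -1.51 for site in CD25- cells, while Irf7 and Irf9 lie above 0 for site in both sorts.

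Whether the site difference itself depended on the sort was tested as an interaction, the site difference in CD25+ cells minus that in CD25- cells. It was 1.55 for Irf4 (SE 0.30, 95% interval 0.92 to 2.19) and 1.29 for Irf8 (SE 0.29, 0.68 to 1.91), the 9th and 17th largest of 12422 in size. Both intervals lie above 0 but are not adjusted for the number of probe sets. Neither gene passed (limma adjusted p = 0.322 and 0.460), so a site difference confined to CD25- cells was not shown. No member passed, 2 had an unadjusted p under 0.05 (3.08% of all probe sets), and 1 probe set of all passed, for Eomes (0.00805%). The interaction was -0.17 for Irf7 (95% interval -0.63 to 0.30), -0.22 for Irf9 (-0.61 to 0.16) and -0.10 for Irf1 (-0.66 to 0.46).

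Compared by sort within a site, CD25+ cells had less Irf4 than CD25- cells in peripheral nodes, at 7.17, 7.43 and 7.20 against 8.66, 9.02 and 8.52. The difference was -1.46 (SE 0.22, limma adjusted p = 0.00131), it was kept in every alternative, and Irf4 was the only 1 of 6 probe sets to pass, where 7.69% of all probe sets passed (5.89% lower). Its groups did not overlap, and 10.8% of all probe sets were lower without overlap. In mesenteric nodes Irf4 differed by 0.09 between the sorts (95% interval -0.33 to 0.51), with overlapping arrays. Irf8 was higher in CD25+ than in CD25- cells of mesenteric nodes, at 6.05 to 6.52 against 5.36 to 5.74, with no overlap. Of all probe sets, 12.1% were higher without overlap. The Irf8 difference was 0.68 (SE 0.19, adjusted p = 0.0322), the 1 member call where 12.2% of all probe sets passed (4.66% higher). It was lost without any 1 of 6 arrays (adjusted p = 0.0516 to 0.169) and with the B cell marker mean as a covariate (0.54, adjusted p = 0.0697). Of the 16 B cell markers, 3 were higher in the same comparison (Blk 1.59, Cd79b 1.07 and Cd37 0.84) and 1 lower (Pou2af1 -0.75), with a median of 0.01. Of 7 class II genes, 4 were higher, H2-Aa by 2.30, with a median of 1.03. Over the 14 node arrays, with group means taken out, Irf8 correlated with the B cell marker mean at r = 0.61. It gave 0.70 with the class II mean and 0.61 with the mean of 10 T cell markers. Higher values came from the mean of Irf3, Irf5 and Irf2bp1 (0.81) and that of 5 CD8 T and NK cell markers (0.73). The part of B cell and class II genes in the Irf8 result was not tested beyond that covariate. In peripheral nodes Irf8 ran the other way, by -0.61 (SE 0.21), without overlap but without passing (adjusted p = 0.108). Irf9 and the family-shared Irf7 probe set were higher there, also without overlap, which is frequent at this group size. Irf1, Irf7 and Irf9 passed in neither site.

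Levels over the 4 node groups, in log2 and compared only within a gene, were therefore ordered differently. For Irf4 the order was peripheral CD25- 8.73 ± 0.26, peripheral CD25+ 7.27 ± 0.14, mesenteric CD25+ 7.21 ± 0.37 and mesenteric CD25- 7.12 ± 0.32 (SD, n = 3, 3, 5 and 3), and the last 3 lay within their spread. For Irf8 it was peripheral CD25- 7.12 ± 0.37, peripheral CD25+ 6.51 ± 0.42, mesenteric CD25+ 6.29 ± 0.19 and mesenteric CD25- 5.60 ± 0.21, and between neighbours only the step to the lowest group passed the test. For Irf7 both mesenteric means were 5.87, above peripheral CD25+ at 5.34 ± 0.35 and peripheral CD25- at 5.18 ± 0.17. For Irf9 both mesenteric means lay at 8.94 to 8.96, above peripheral CD25+ at 8.61 ± 0.17 and peripheral CD25- at 8.37 ± 0.06. The 4 means of Irf1 spanned 7.88 to 8.02, less than the SD of any group.

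The genes that interferons act through and on were read beside the members. Of 20 measured type I interferon targets, 12 were higher and 0 lower in mesenteric than in peripheral cells over both sorts, with a median of 0.98, against -0.01 over all probe sets. Ifit1 (2.84, SE 0.20), Ifit3 (2.80), Usp18 (2.46), Isg15 (1.88), Mx1 (1.81), Ifih1 (1.57), Isg20 (1.51) and Rsad2 (1.40), most of them antiviral effectors, had the largest differences. In CD25+ cells 6 of 20 were higher, and in CD25- cells 10 of 20 were. Of 17 interferon gamma targets 0 passed by limma in the same comparison (6 unadjusted), with a median of 0.28. Of 15 genes for interferons, their receptors and signalling 0 passed (1 unadjusted), with a median of -0.01.

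The mean of the 20 type I targets was 6.46 to 6.76 in mesenteric CD25+ arrays and 5.39 to 6.05 in peripheral CD25+ arrays. It was 6.45 to 6.87 in mesenteric CD25- arrays and 5.29 to 5.44 in peripheral CD25- arrays. The highest peripheral value, 6.05, belonged to CD25+ replicate 3, the array that was also highest among peripheral arrays for Irf7 (5.72) and Irf9 (8.80). Over the 14 node arrays the mean of the targets correlated with Irf7 at r = 0.94 and with Irf9 at r = 0.87. After each group's mean was taken out the values were 0.81 and 0.37. These arrays share the site difference and the normalization, so the correlations are descriptions.

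**Figure D3:**
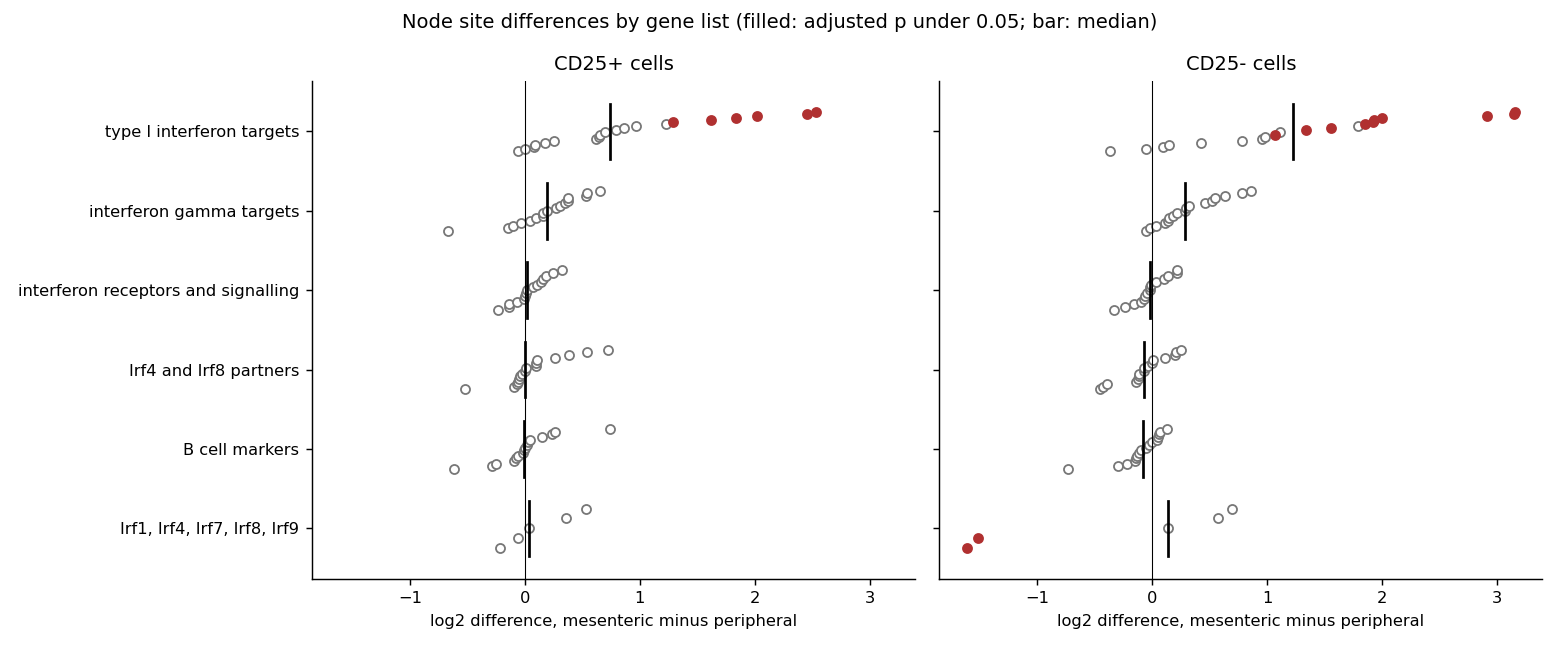
Log2 difference of mesenteric minus peripheral nodes (horizontal axis) for each measured gene (points) of 5 gene lists and for the members, in CD25+ cells (left) and CD25- cells (right); filled points passed limma and bars are list medians. The type I interferon targets spread to 3.16 in CD25- cells, where Irf4 and Irf8 are the filled points on the negative side.

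No companion factor of Irf4 and Irf8 passed the test by site. Of 16 measured DNA-binding partners and companion factors, among them Batf, Batf3, Spi1 (PU.1), Junb and Prdm1, 0 passed by limma over both sorts (1 unadjusted), with a median of -0.01. In CD25- cells 0 passed (1 unadjusted), with Batf at 0.00, Spi1 at -0.07, Bcl6 at -0.43 and Nfatc1 at -0.39. Of 18 genes of effector regulatory T cells, 1 passed, Ctla4, an inhibitory receptor induced by activation, which fell by 0.92 on the log2 scale over both sorts and by 1.71 in CD25- cells. Eomes, a T-box factor of cytotoxic and memory T cells, was lower in mesenteric CD25- cells by both of its probe sets (-1.63 and -3.00). Among the other family genes measured, Irf3 and Irf5 passed in no site comparison, and Irf5 was higher in CD25+ than in CD25- mesenteric cells (0.52, SE 0.13, limma adjusted p = 0.0196).

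Irf4 and Irf8 correlated with each other at r = 0.72 over the 14 node arrays, but at 0.16 after group means were taken out. Irf7 and Irf9 gave 0.78 and 0.16. The pairs thus ran together between groups more than between arrays of a group. Irf4 and Irf9 gave -0.78, and -0.51 within groups. The 2 Irf7 probe sets gave 0.82 and 0.57. Irf1 and Irf8 gave 0.13 over all arrays but 0.74 within groups.

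**Figure D4:**
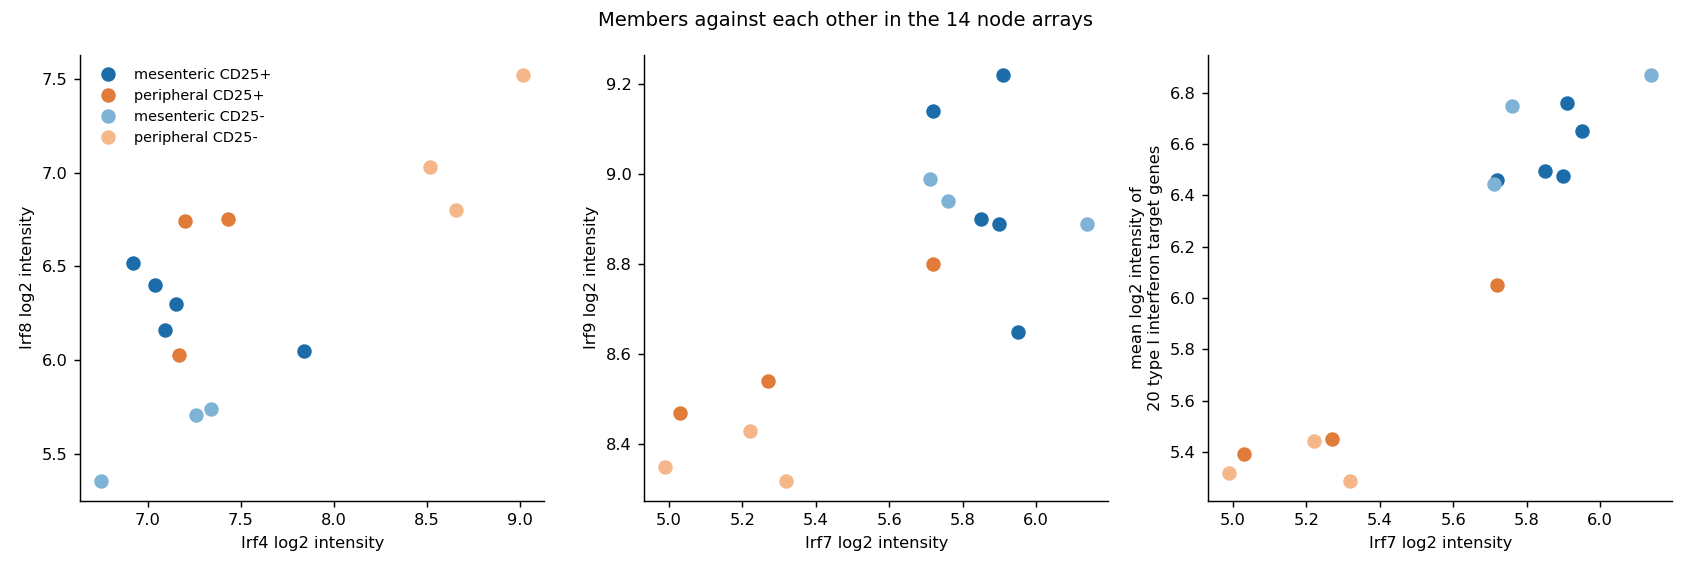
Log2 intensities of Irf8 against Irf4 (left), Irf9 against Irf7 (middle) and the mean of the 20 type I interferon targets against Irf7 (right) in the 14 node arrays (points, coloured by group). Peripheral CD25- arrays are at the top right on the left panel and at the bottom left on the others, and 1 peripheral CD25+ array, replicate 3, lies near the mesenteric arrays in the middle panel.

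By Pearson r over the 14 node arrays, the 3 genes most like Irf4 were Eomes (0.90), Myb (0.90) and Pgap2 (0.90). Within groups, their r was -0.27, 0.41 and 0.71. Those most like Irf8 were Cyth3 (0.92), Asap1 (0.91) and Rgs16 (0.91), with 0.64, 0.67 and 0.59 within groups. Those most like Irf7 were Mx2 (0.95), Mx1 (0.94) and Ifit1 (0.93), and those most like its family-shared probe set were Ifitm3 (0.91), Isg20 (0.91) and Pml (0.89). For Irf9 they were Gm9706 (0.93), Isg15 (0.91) and Ifit1 (0.90). For Irf1 they were Scamp3 (0.83), Rab8a (0.81) and Syncrip (0.80). In the first pancreatic set, Irf7 correlated with Ifit1 at -0.14 and Irf4 with Eomes at 0.44, over 8 arrays. In the second, also of 8 arrays and with the array labelled anti-ICOS Treg replicate 3 included, the same pairs gave 0.55 and 0.91.

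In the infiltrated pancreas, no member passed the test between Treg and Teff cells. In IgG mice Irf8 read 8.06, 7.50 and 7.11 in Treg arrays and 8.16, 7.91, 7.64, 8.02 and 7.69 in Teff arrays. Irf4 read 8.37, 8.20 and 8.62 in Treg arrays and 8.30, 8.50, 8.54, 9.09 and 8.65 in Teff arrays. Both overlapped, although the Treg arrays at 7.50 and 7.11 for Irf8 and at 8.20 for Irf4 lay below every Teff array. The differences were -0.33 for Irf8 (95% interval -0.77 to 0.11) and -0.22 for Irf4 (-0.59 to 0.15). Irf1 differed by 0.07 (-0.22 to 0.36), Irf7 by 0.16 (-0.09 to 0.42) and Irf9 by -0.09 (-0.45 to 0.27). By limma 0 of 6 probe sets passed, also at an unadjusted p under 0.05, where 6.69% of all probe sets passed (20.3% unadjusted). No member's groups were without overlap, against 14.1% of all probe sets.

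Some genes around the members did pass the test there. Of 17 interferon gamma targets 6 were higher and 0 lower in Treg than in Teff cells, with Gbp3 at 2.18, Igtp at 0.90 and Psmb9 at 0.79. Of 20 type I targets 3 were higher, Samhd1 (1.38), Isg20 (1.23) and Ifi35 (0.89). Of 16 partners, Prdm1, which encodes BLIMP-1 (1.85), and Batf (0.66) were higher, while Bcl6 (-1.53) and Nfatc1 (-0.40) were lower. Of 18 genes of effector regulatory T cells, 14 were higher, with a median of 1.93. Of 15 interferon and receptor genes, Ifngr1 was higher (0.82) and Jak2 lower (-0.55). The log2 ratio of 3′ to 5′ actin signal, a sign of RNA quality, also differed, with a mean of 3.75 in Treg and 2.65 in Teff arrays. With that ratio as a covariate, 86 of all probe sets passed in this comparison, against 831 without it. Its part in the list counts was not tested, so these calls may not stand apart from RNA quality.

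In mice given anti-ICOS, Irf8 read 7.79, 7.36 and 8.27 in arrays labelled Treg, against 8.60, 8.24 and 7.79 in Teff arrays. The difference was -0.40 (95% interval -1.03 to 0.22) with overlap, and the other members differed by -0.09 to 0.15. The Treg value of 8.27 is that of replicate 3, whose markers go against its label. Without it, the Irf8 difference was -0.64 (SE 0.26, limma adjusted p = 0.840), the other members differed by -0.20 to 0.12, and no member passed. By limma 0 of 6 probe sets passed and 0 had an unadjusted p under 0.05, where 0% of all probe sets passed (1.68% unadjusted). For treatment within Treg cells of the second set, Irf8 read 7.79, 7.36 and 8.27 after anti-ICOS, against 6.66 and 6.92 after IgG. The groups did not overlap, and the difference was 1.01 (SE 0.31), but it did not pass (limma adjusted p = 0.893). Without the array labelled anti-ICOS Treg replicate 3, the highest of the 5, it was 0.78 (SE 0.29, adjusted p = 0.991). There too 0% of all probe sets passed, 1 of 6 members had an unadjusted p under 0.05 (3.42% of all probe sets), and 4.85% of all probe sets were higher without overlap. Irf9 was non-overlapping as well, at 8.49 to 8.68 after anti-ICOS and 8.27 to 8.41 after IgG (0.27, SE 0.17). Without the array labelled anti-ICOS Treg replicate 3, the Irf9 difference was 0.24. IgG Treg arrays of the first set, normalized separately and not tested against these, read 8.06, 7.50 and 7.11 for Irf8. The values 8.06 and 7.50 lie within the range of the anti-ICOS arrays. The array at 7.11 bears the same array number as the second-set IgG array at 6.92.

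IgG Treg replicate 1 of the second set stood apart in other cell markers. It had a mean of 5.71 over 17 macrophage and dendritic cell markers, against 4.47 to 4.97 in the anti-ICOS Treg arrays, and a mean of 11.3 over 2 erythroid markers, against 5.54 to 9.22. It also had the lowest Irf1 value of the second set, at 7.56. Without it, which leaves only the other IgG array and so no test to rely on, Irf8 differed by 0.88 and Irf1 by 0.00. With all arrays Irf1 differed by 0.47. Array-number run C holds 1 array of each treatment and gave 1.35 for Irf8, but its anti-ICOS array is replicate 3, whose markers go against its label. The Treg gates also differed, since CD69- was stated for the IgG cells only, and treatment cannot be told apart from that gate. IgG Treg replicate 1 was alone in the second set in its array-number run, E, and its stated age of 4 weeks. The other arrays of that set were in runs A to C and from mice aged 26 days. For that array, treatment cannot be told apart from run and age either. Teff cells of the 2 treatments lie in separate sets and were not tested: Irf8 had a mean of 8.21 ± 0.40 after anti-ICOS in the second set (SD, n = 3) and 7.88 ± 0.22 after IgG in the first (SD, n = 5), and Irf4 had 8.68 ± 0.30 and 8.62 ± 0.29.

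**Figure D5:**
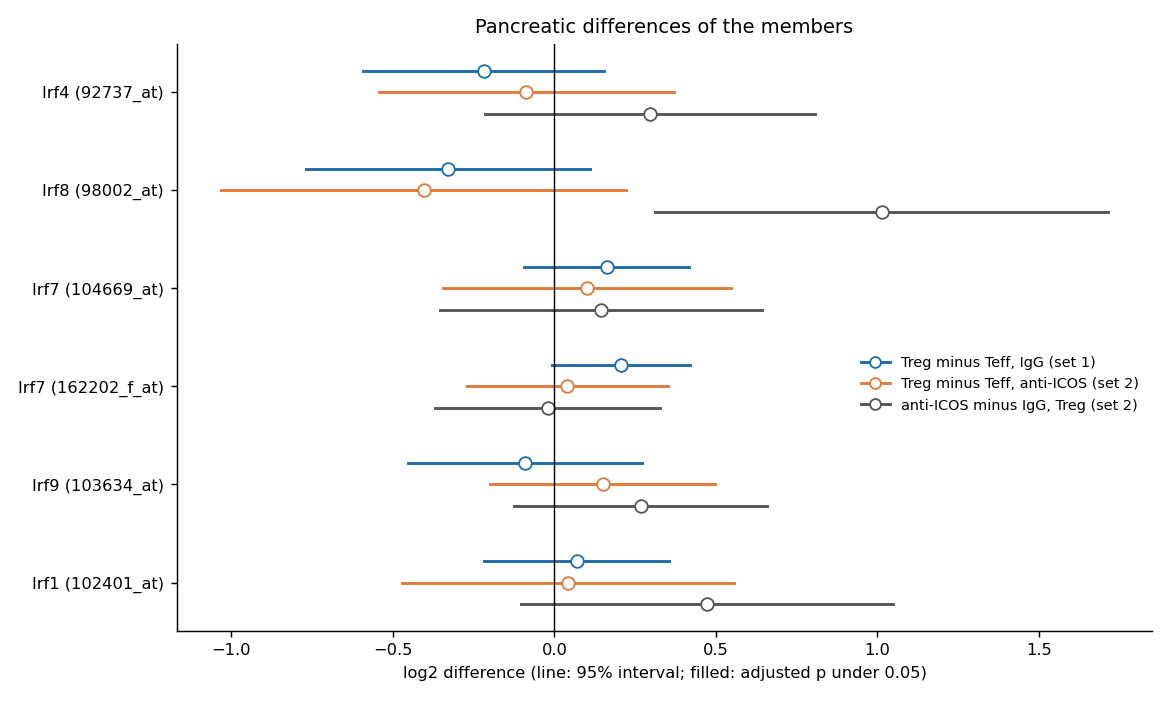
Log2 difference (horizontal axis) with its 95% interval (line) for each member probe set in the 3 pancreatic comparisons (colours); an open point has a limma adjusted p of 0.05 or more. All points are open, and the interval furthest from 0 is that of Irf8 for anti-ICOS minus IgG in Treg cells, centred at 1.01 (0.78 without the array whose markers go against its label).

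Pancreas and nodes were put on 1 scale by quantile normalization of the first pancreatic set with the node set. The sets differ in processing and tissue together, so their levels are given with no test. Irf8 averaged 7.38 ± 0.55 in pancreatic Treg and 7.72 ± 0.29 in pancreatic Teff arrays (SD, n = 3 and 5), against node means of 5.76 in mesenteric CD25-, 6.41 in mesenteric CD25+, 6.67 in peripheral CD25+ and 7.18 in peripheral CD25- arrays. Irf4 averaged 8.25 ± 0.10 in pancreatic Treg and 8.49 ± 0.29 in pancreatic Teff arrays, against 8.76 ± 0.20 in peripheral CD25- arrays and 7.19 to 7.44 in the other 3 node groups. Thus the peripheral CD25- arrays were the node group nearest to the pancreas for both genes. Irf9 ran the other way, at 8.04 and 8.15 in pancreatic Treg and Teff arrays, against 8.39 to 9.08 in the 4 node groups. The difference of Treg minus Teff in pancreas, less that of CD25+ minus CD25- averaged over the node sites, passed for 0 of 6 members by limma (1 at an unadjusted p under 0.05, Irf9 at -0.36), where 2.08% of all probe sets passed (14.2% unadjusted). It was 0.35 for Irf4 (95% interval -0.13 to 0.83) and -0.41 for Irf8 (-0.97 to 0.15). The node average joins unlike sites for these genes. Within the node set, CD25+ minus CD25- was 0.09 in mesenteric and -1.46 in peripheral nodes for Irf4, and 0.68 and -0.61 for Irf8.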

How the data were processed

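RNA of sorted CD4+ T cells was measured on 30 Affymetrix MG-U74Av2 arrays; labels of the node set and of the first pancreatic set name 2 rounds of amplification. The deposited values are linear probe set intensities, 1 per array. For the node set and the second pancreatic set (22 arrays) they come from RMA, per the submitters' processing notes. The method for the first pancreatic set was not given in the sources used here. Each deposited intensity was taken to log2. Groups follow the titles. Differences were tested with limma 3.58.1 in R 4.3.3 (two-sided, Benjamini-Hochberg over 12422 probe sets, 66 controls left out, threshold 0.05), within 1 set at a time. The fit joining pancreas and nodes quantile-normalized its 22 arrays together. Scripts were tested on simulated data.

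Gene symbols come from GEO's platform annotation: 10833 probe sets had 1 symbol, 396 several and 1193 none, and 8237 of 8251 genes named alone were found in RefSeq by Entrez identifier. Members and gene lists were chosen with earlier results of these data known. Text names all member probe sets, up to 8 called genes per list and site or pancreatic IgG comparison, and the 3 genes most like each member; other genes named, such as list members without a call, were chosen after their values were seen. A gene with several probe sets is represented by the brightest over all arrays. In the second set, all 7 pairs of same-numbered arrays deviated together (r 0.237 to 0.621), and a fit blocked on the number changed no call there. Alternatives were median centring, quantile normalization within a set, leaving out the dimmest probe sets, limma's trend and robust options, the actin ratio, array-number run or replicate number in the model, leaving out each array, and, added after seeing the data, the B cell marker mean as a covariate and within-run values. The small number of arrays limits precision.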

Additional observations from a re-analysis of the deposited data

Results flagged for a closer look

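Irf4 in mesenteric CD25+ replicate 3 read 7.84, while the other 4 arrays of that group read 6.92 to 7.15. Its gap to the nearest array exceeded Dixon's critical value for 5 samples. It was 1 flag among 12 groups tested, and chance flags about 1 group in 20. The same array had the lowest Irf9 (8.65) and the lowest Irf8 (6.05) of its group.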

How the results depend on the processing

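No member's difference that passed the test changed sign in any alternative. The calls of Irf4 and Irf8 by site in CD25- cells, of Irf8 by site over both sorts and of Irf4 by sort in peripheral nodes stood in all alternatives run. The count of members called by site over both sorts, 4, was 1 with the replicate block and 1 to 4 without 1 array; the blocked fit kept Irf8 only (Irf4 adjusted p = 0.0744, Irf7 0.0694, Irf9 0.103, by limma). Irf8 by sort in mesenteric nodes, the 1 call there, was lost with the replicate block and with the B cell covariate (0 called), with 0 to 1 called without 1 array. Whether the replicate numbers pair the node arrays is not known. Of 18 same-number pairs, 8 correlated above 0.1 (-0.138 to 0.508), and pairs with different numbers were not set beside them. By site in CD25- cells, Irf9 also passed without mesenteric CD25+ replicate 3 (limma adjusted p = 0.0437) and Irf7 without peripheral CD25+ replicate 3 (0.0245). The causes of these changes were not tested.

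Over all probe sets, leaving out 1 array gave 38 to 84 calls for site over both sorts (63 with all arrays), 2 to 21 for site in CD25+ cells (9), 36 to 68 for site in CD25- cells (56), 743 to 1878 for sort in mesenteric nodes (1514), 531 to 1462 for sort in peripheral nodes (955) and 1 to 2 for site by sort (1). For the pancreas it gave 450 to 1000 for IgG (831), 0 to 12 for anti-ICOS (0; the 12 without the array labelled Treg replicate 3), 0 to 35 for anti-ICOS against IgG in Treg cells (0) and 160 to 445 for tissue by sort (258). With the actin ratio as a covariate the counts were 5 for site in CD25+ cells, 267 for sort in peripheral nodes, 86 for pancreatic IgG and 56 for tissue by sort. The replicate block gave 832 for sort in mesenteric nodes and 2 for site by sort, where trend and robust options gave 2 and leaving out the dimmest probe sets gave 0. The run as a block gave 15 for anti-ICOS Treg against Teff and 3 for anti-ICOS against IgG.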
